A study of Rattus norvegicus with 9 samples.

Results

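Pax5, Cd79a, Cd79b, Ms4a1, Cd22, Blk, Blnk, Btk and Cr2 were measured in RNA of rat tibia, as genes that mark B cells and build or relay their antigen receptor. They were chosen by symbol, and all 9 of 9 were found among the 23768 genes of the count table. All 9 also passed the filter on low counts, which left 16816 genes for testing. The tibiae came from male Sprague Dawley rats in 3 groups of 3 libraries. The group called Model is the reference of the other groups, and the labels do not say what was done to it, so its state, the time of sampling and the age of the rats are not given here. The GelMA group received GelMA, or gelatin methacryloyl, which is gelatin modified so that it can be cross-linked into a hydrogel. The PMLGH group received PMLGH, a name the labels do not expand. By its title, the study concerns an enzyme-like peptide modelled on lysyl oxidase, which cross-links collagen, in the healing of diabetic bone.

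The B cell receptor is a membrane immunoglobulin that binds antigen, and it cannot signal alone. Its immunoglobulin pairs with Cd79a and Cd79b, whose cytoplasmic tails are phosphorylated by Src-family kinases such as Blk. The adaptor Blnk then gathers the kinase Btk and phospholipase C around the receptor. Pax5 is the transcription factor that commits a precursor to the B lineage and switches on Cd79a and Blnk, and it is shut off when a B cell becomes a plasma cell. Bone marrow, which a whole tibia contains, is where B cells are formed in the adult, so tibial RNA holds precursors beside mature cells.

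Promoter sequence was available for 5 of the 9 genes in RefSeq's rat assembly GRCr8, namely Cd79a, Cd22, Blnk, Cr2 and Btk. The 250 bases before the annotated start of 4 of them are shown because these genes did not pass the same tests. Cd79a and Cr2 were called lower in PMLGH than in GelMA, where Blnk was also lower but did not pass. Cd79a and Blnk were called higher in GelMA than in Model. Cr2 was called lower in PMLGH than in Model, and Btk passed no test. Capitals mark matches, on either strand, to 4 motifs of B cell regulators: GAGGAA (the PU box), ATGCAAAT (the octamer), CCCNNGGG (a pair of EBF half-sites) and CAGGTG (an E-box of E2A). Each sequence runs 5′ to 3′ on the strand of its gene.
Cd79a, chr1:89621210-89621459, plus strand: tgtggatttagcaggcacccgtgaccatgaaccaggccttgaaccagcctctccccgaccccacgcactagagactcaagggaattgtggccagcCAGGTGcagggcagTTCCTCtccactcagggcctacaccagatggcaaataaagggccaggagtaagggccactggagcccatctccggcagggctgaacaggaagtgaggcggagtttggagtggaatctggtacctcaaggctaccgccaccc
Blnk, chr1:249770534-249770783, minus strand: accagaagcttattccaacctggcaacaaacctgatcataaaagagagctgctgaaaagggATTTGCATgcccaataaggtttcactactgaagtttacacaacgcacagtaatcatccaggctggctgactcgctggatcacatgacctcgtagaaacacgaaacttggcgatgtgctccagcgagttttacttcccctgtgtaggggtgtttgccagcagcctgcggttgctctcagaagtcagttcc
Cr2, chr13:109244507-109244756, minus strand: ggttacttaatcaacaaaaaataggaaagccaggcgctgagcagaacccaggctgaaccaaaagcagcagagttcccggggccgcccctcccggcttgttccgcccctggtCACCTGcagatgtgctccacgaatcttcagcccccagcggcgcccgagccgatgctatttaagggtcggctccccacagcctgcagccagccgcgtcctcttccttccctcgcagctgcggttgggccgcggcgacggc
Btk, chrX:102055144-102055393, minus strand: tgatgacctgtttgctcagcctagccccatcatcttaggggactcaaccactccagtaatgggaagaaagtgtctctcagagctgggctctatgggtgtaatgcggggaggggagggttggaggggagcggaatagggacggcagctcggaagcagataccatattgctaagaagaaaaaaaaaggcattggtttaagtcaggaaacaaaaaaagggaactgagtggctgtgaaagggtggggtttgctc
The Cd79a window held the E-box 155 bases before the start and, on the other strand, the PU box 141 bases before it. Blnk held 1 octamer, on the other strand, 189 bases before the start. Cr2 held 1 E-box on the other strand, 139 bases before its start, and the Btk window held none of the 4 motifs. The Cd22 window, which is not printed, held 1 PU box 64 bases before its start, and that start lies 10700 bases inside the outermost gene model of Cd22. The starts used for Cr2 and Btk also lie inside their outermost gene models, by 474 and 305 bases, while those of Cd79a and Blnk are the outermost. Of 33360 rat promoter windows of this length, 23.3% held the PU box, 1.55% the octamer, 10.8% the EBF pair and 15.9% the E-box. These are matches of letters, and no binding was measured here.

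Library totals ran from 34571478 to 37166383 counts. The 9 genes together took 12796 to 21421 counts in a library, or 0.0345% to 0.0592% of the total. Within the Model group, replicate 2 stood apart. A chi-square statistic per gene over all abundant genes averaged 33.5 and 28.1 against Model 1 and Model 5, where these differed from each other by 15.9. Most of its B cell genes were higher too: relative to the mean of Model 1 and Model 5, Model 2 held 1.76 times the Blk, 1.56 times the Cd79b, 1.54 times the Cd79a and 1.45 times the Pax5. The ratio was smaller for Cd22 (1.27), Btk (1.10) and Cr2 (1.06). Summed marker lists of other cells also differed in Model 2, with ratios of 1.48 for B cell precursors, 1.42 for T cells, 1.28 for neutrophils and 0.818 for erythroid cells. Results of the 9 genes against Model are therefore given with and without Model 2, and those of the other lists in part. The labels do not say that each library is a separate animal, so p-values may measure technical spread, and they name no batch, so group and any batch that ran along with it cannot be told apart.

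On the length-corrected FPKM scale, the receptor subunits were the most abundant of these transcripts. Cd79a averaged 115 FPKM over the 9 libraries (range 78.5 to 166) and Cd79b 49.1 (33.4 to 68.1), and Cd79a was above Cd79b in 9 of 9 libraries with no overlap of their ranges. The adaptor Blnk (26.7 FPKM, 18.9 to 37.1) and the kinase Btk (25.9 FPKM, 23.8 to 28.2) came next and could not be ordered, since Blnk was the higher in 5 of 9 libraries. Ms4a1 followed at 11.5 FPKM (7.45 to 16.0). Blk at 6.55 FPKM (4.02 to 9.41) and Cd22 at 6.40 FPKM (5.44 to 7.56) also changed places, Blk being the higher in 4 of 9 libraries. Pax5, the transcription factor, stood at 4.55 FPKM (2.84 to 6.75) and was below Cd22 in 9 of 9 libraries. Cr2 was lowest at 1.86 FPKM (1.37 to 2.46), with a range clear of that of Pax5 and a mean 62.0-fold below that of Cd79a.

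Levels of single genes are given next as CPM, counts scaled to a common library size, here the TMM-adjusted total, in the order Model 1, 2 and 5, then GelMA 2, 3 and 4, then PMLGH 2, 3 and 4. Pax5, the lineage factor, stood at 25.4, 37.3 and 26.2 CPM in Model, 33.7, 44.4 and 45.3 in GelMA and 23.0, 25.3 and 19.8 in PMLGH. Every PMLGH library was below every library of the other groups, and Model 2 lay among the GelMA libraries. Cd79a, the first signalling subunit of the receptor, stood at 114, 169 and 105 CPM in Model, 152, 186 and 193 in GelMA and 108, 108 and 94.5 in PMLGH. Cd79b, its partner, stood at 50.5, 76.2 and 47.2 CPM in Model, 62.9, 77.5 and 80.7 in GelMA and 48.6, 49.1 and 41.0 in PMLGH. For both subunits the GelMA and PMLGH libraries did not overlap, Model 1 and 5 lay at or near the PMLGH level, and Model 2 lay within the GelMA range.

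The surface molecules did not share a single course. Ms4a1, which encodes CD20, stood at 23.0, 31.3 and 20.2 CPM in Model, 23.4, 29.8 and 32.2 in GelMA and 15.3, 18.9 and 18.4 in PMLGH. The PMLGH libraries were the 3 lowest of the 9, and Model and GelMA overlapped. Cr2, the complement receptor CD21 that lowers the threshold of the B cell receptor, stood at 12.8, 15.2 and 16.0 CPM in Model, 13.2, 16.5 and 18.0 in GelMA and 10.2, 11.4 and 11.3 in PMLGH. Its PMLGH libraries were again the 3 lowest, and Model 2 was not the highest Model library for it. Cd22, a sialic acid-binding receptor that restrains B cell receptor signalling, stood at 36.6, 43.6 and 31.8 CPM in Model, 33.4, 38.7 and 38.1 in GelMA and 34.6, 36.3 and 38.1 in PMLGH. The 3 groups overlapped throughout for Cd22, and the highest and the lowest library were both Model libraries.

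Among the signalling genes, Blk, the Src-family kinase at the receptor, stood at 17.0, 29.8 and 17.0 CPM in Model, 21.6, 26.2 and 27.8 in GelMA and 16.1, 17.5 and 12.9 in PMLGH. Model 2 was the highest of all 9 libraries, and GelMA and PMLGH did not overlap. Blnk, the adaptor, stood at 39.6, 54.8 and 35.3 CPM in Model, 52.2, 60.8 and 66.8 in GelMA and 44.4, 45.4 and 42.2 in PMLGH. Model 1 and 5 were the 2 lowest libraries for Blnk, below all PMLGH libraries, which no other gene of the 9 showed. Btk, the kinase mutated in X-linked agammaglobulinaemia and also made by myeloid cells, stood at 71.6, 81.5 and 76.5 CPM in Model, 77.2, 73.7 and 77.0 in GelMA and 68.0, 73.8 and 71.5 in PMLGH. The Btk libraries of the 3 groups lay close together and overlapped.

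**Figure D1:**
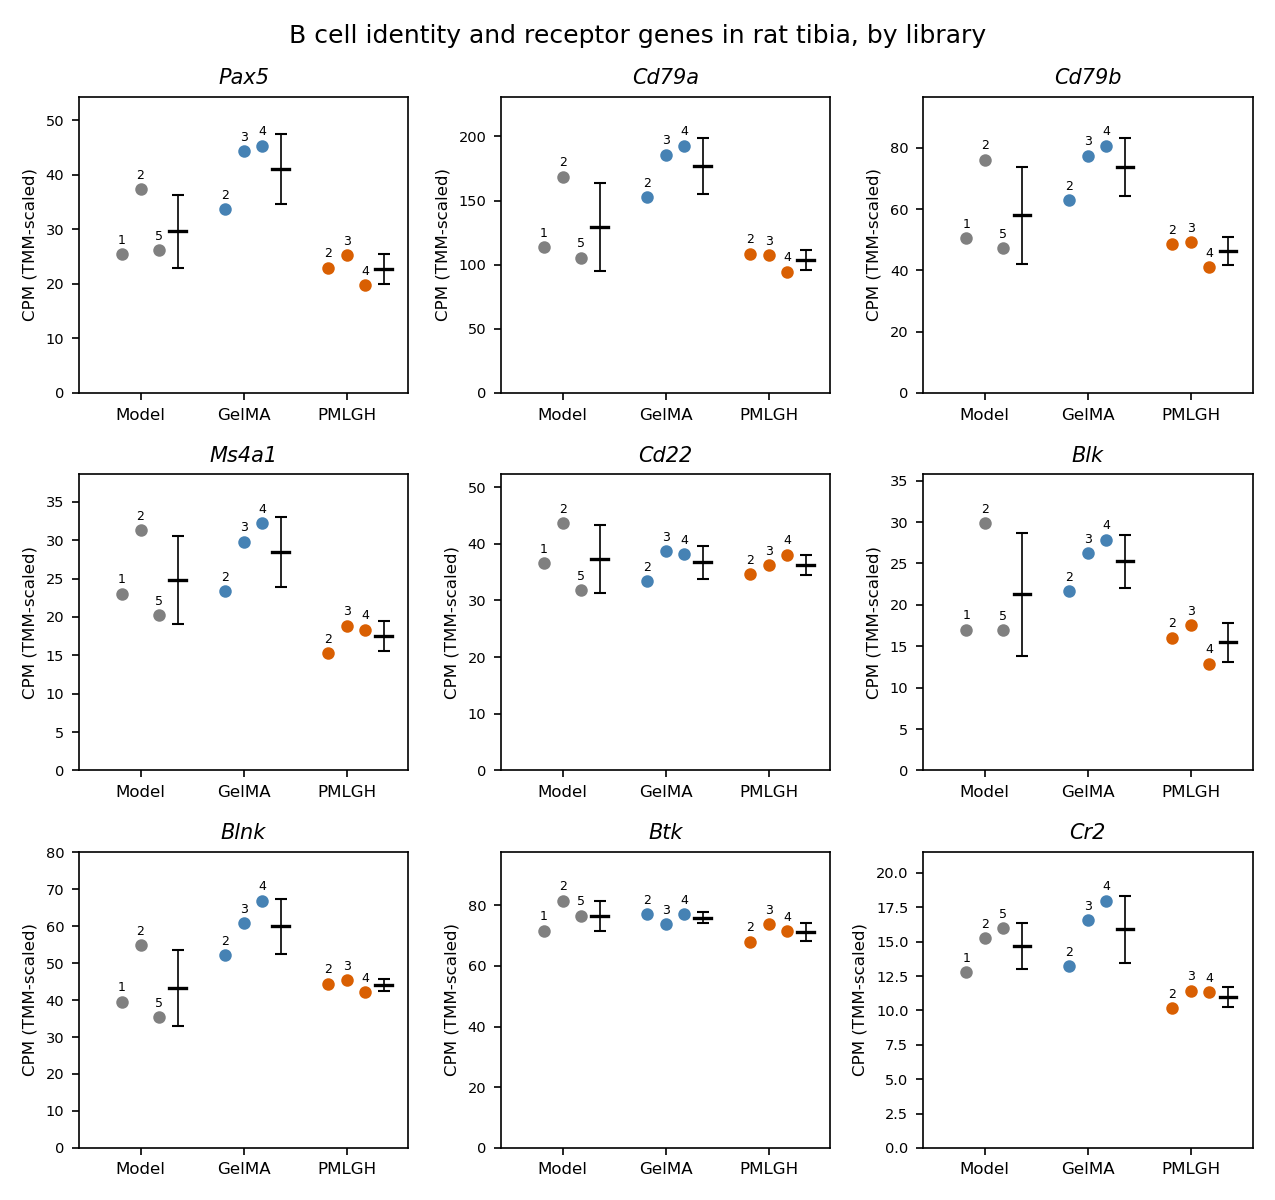
Level of each of the 9 B cell genes in CPM (linear axis from 0) in the 3 Model, 3 GelMA and 3 PMLGH libraries; points carry the replicate number, and the bar with its error is the group mean ± SD. The PMLGH points lie below all GelMA points for 7 genes, and the groups overlap for Cd22 and Btk.

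The comparison of PMLGH with GelMA sets the PMLGH libraries beside those of the GelMA hydrogel. Transcripts of the B cell lineage factor, of both receptor subunits, of CD20 and of CD21 were lower in PMLGH. Pax5 fell from 41.1 ± 6.43 to 22.7 ± 2.77 CPM (SD, n = 3), 0.551 times the GelMA level. Cd79a fell from 177 ± 21.5 to 103 ± 7.80 CPM, or 0.585 times. In bulk tissue, fewer B cells and less of these RNAs per B cell cannot be told apart.

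By edgeR's quasi-likelihood test with Benjamini-Hochberg adjustment, the log2 fold change of Pax5 was -0.86 ± 0.14 (approximate SE, adjusted p = 0.0028) and that of Cd79a -0.77 ± 0.14 (adjusted p = 0.0043). Cd79b fell by 0.67 ± 0.15 (edgeR adjusted p = 0.016), Ms4a1 by 0.70 ± 0.15 (adjusted p = 0.015) and Cr2 by 0.53 ± 0.13 (adjusted p = 0.028) on the log2 scale. In all, 5 of 9 genes fell, where 1.64% of all genes tested were called lower and 1.8% higher. The 2 signalling genes next to the receptor missed the threshold, with log2 fold changes of -0.70 ± 0.19 for Blk (95% interval -1.10 to -0.31, edgeR adjusted p = 0.051) and -0.45 ± 0.13 for Blnk (-0.72 to -0.17, adjusted p = 0.073). Btk at -0.10 (95% interval -0.23 to 0.04, edgeR adjusted p = 0.50) and Cd22 at -0.02 (-0.23 to 0.20, adjusted p = 0.96) did not pass. The intervals of Btk and Cd22 end short of the estimates of the 5 genes that fell. The libraries did not overlap, with PMLGH lower, for 7 of the 9 genes, against 11.4% of all genes. The median log2 fold change of the 9 was -0.67, and that of all genes tested 0.00.

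The call of Pax5 held in all 17 alternative analyses, and that of Cd79a in 16, the exception being edgeR's robust fit (adjusted p = 0.094). Ms4a1 lost its call without GelMA 3 (edgeR adjusted p = 0.063), GelMA 4 (0.078) or PMLGH 2 (0.072), and Cd79b under the robust fit (0.15) and without GelMA 3 (0.066), GelMA 4 (0.075), PMLGH 3 (0.055) or PMLGH 4 (0.10). Cr2 lost its call without GelMA 3 (edgeR adjusted p = 0.11), GelMA 4 (0.14), PMLGH 2 (0.11), PMLGH 3 (0.081) or PMLGH 4 (0.076). Without Model 2, a library of neither group that enters through the pooled estimate of the spread, 7 of 9 genes fell, with Blk at -0.71 (edgeR adjusted p = 5.6e-04) and Blnk at -0.45 (adjusted p = 0.0015) added, where 2.7% of all genes were called lower. In all, Blk passed in 8 of the 17 alternatives, among them without Model 1 (edgeR adjusted p = 0.032) or Model 5 (0.030). Blnk passed in 7 of 17, among them without Model 5 (edgeR adjusted p = 0.028) and with DESeq2. Both also passed with only the 2 groups in the fit and with a block by replicate number.

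The comparison of GelMA with Model sets the GelMA libraries beside the reference group. Blnk, Cd79a and Pax5 rose, each by about the same factor. Blnk went from 43.2 ± 10.2 CPM in Model to 59.9 ± 7.36 in GelMA (SD, n = 3), 1.39 times the Model level. Cd79a and Pax5 stood at 1.37 and 1.39 times their Model level. The log2 fold changes were 0.47 ± 0.13 for Blnk (edgeR adjusted p = 0.015), 0.45 ± 0.14 for Cd79a (adjusted p = 0.026) and 0.47 ± 0.14 for Pax5 (adjusted p = 0.027). So 3 of 9 genes rose and none fell, where 12.7% of all genes were called higher and 9.88% lower.

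Cd79b at 0.35 ± 0.14 (edgeR adjusted p = 0.10), Blk at 0.25 ± 0.18 (0.37), Ms4a1 at 0.20 ± 0.15 (0.38) and Cr2 at 0.12 ± 0.13 (0.55) did not pass in GelMA against Model. Neither did Cd22 at -0.02 (95% interval -0.24 to 0.19) or Btk at -0.01 (-0.14 to 0.12). The groups overlapped for all 9 genes, 0 of 9 having every GelMA library above every Model library, against 19.8% of all genes. The median log2 fold change was 0.25 for the 9 genes and 0.03 for all genes.

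These calls stood when Model 2, the highest Model library for Blnk, Cd79a and Pax5, was left out. Leaving out the highest library lowers the Model mean, so the larger log2 fold changes follow from that choice and are no separate support. Without Model 2, 6 of 9 genes rose in GelMA against Model, where 15.1% of all genes were called higher. The log2 fold changes were then 0.66 for Cd79a (edgeR adjusted p = 1.2e-05), 0.65 for Blnk (3.0e-05), 0.64 for Pax5 (4.2e-04), 0.56 for Cd79b (2.4e-04), 0.54 for Blk (0.0034) and 0.37 for Ms4a1 (0.034). Cr2 at 0.12, Cd22 at 0.07 and Btk at 0.01 did not pass without it either. With Model 2 kept, leaving out Model 1, Model 5, GelMA 3 or GelMA 4 ended the calls of Blnk (edgeR adjusted p = 0.063, 0.072, 0.052 and 0.079), of Cd79a (0.11, 0.12, 0.096 and 0.11) and of Pax5 (0.12, 0.11, 0.11 and 0.12). Cd79a also missed the threshold with DESeq2 (adjusted p = 0.091), with only the 2 groups in the fit (0.052) and in the robust fit (0.14), where Pax5 missed it as well (0.067).

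PMLGH against Model differed for fewer of these genes. CD20 and CD21 transcripts were lower in PMLGH: Ms4a1 went from 24.8 ± 5.76 to 17.5 ± 1.95 CPM and Cr2 from 14.7 ± 1.67 to 11.0 ± 0.699 CPM (SD, n = 3). Ms4a1 fell by 0.51 ± 0.15 on the log2 scale (edgeR adjusted p = 0.021) and Cr2 by 0.42 ± 0.13 (adjusted p = 0.024). In this comparison 2 of 9 genes fell and none rose, where 11.9% of all genes were called lower and 15.7% higher. Pax5 at -0.39 ± 0.15 (edgeR adjusted p = 0.062), Blk at -0.46 ± 0.19 (0.082), Cd79a at -0.32 ± 0.14 (0.10) and Cd79b at -0.33 ± 0.15 (0.11) did not pass. Btk at -0.11 (95% interval -0.24 to 0.03), Cd22 at -0.04 (-0.25 to 0.17) and Blnk at 0.03 (-0.25 to 0.30) lay nearest to 0.

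For 3 of 9 genes, Pax5, Ms4a1 and Cr2, every PMLGH library was below every Model library, against 18.4% of all genes. The median log2 fold change of the 9 genes was -0.33 and that of all genes 0.02. Without Model 2 the calls of Cr2 (-0.42, edgeR adjusted p = 0.026) and Ms4a1 (-0.34, adjusted p = 0.049) stood, where 16.3% of all genes were called lower. The estimates of the others moved: Cd79a to -0.11 (edgeR adjusted p = 0.35), Cd79b to -0.11 (0.42), Blk to -0.16 (0.36), Pax5 to -0.22 (0.18) and Blnk to 0.20 (0.096). Leaving out PMLGH 2 ended the calls of Ms4a1 (edgeR adjusted p = 0.072) and Cr2 (0.069), and leaving out Model 5 that of Cr2 (0.079). Pax5 passed in 8 of 16 alternatives, among them without Model 1 (edgeR adjusted p = 0.034), Model 5 (0.039), GelMA 2 (0.045) or GelMA 4 (0.049). Without Model 5, Cd79a (0.022), Cd79b (0.029) and Blk (0.032) passed too, and Blk also without Model 1 (0.038). Each pair of comparisons shares a group, so the 3 sets of values are not independent.

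**Figure D2:**
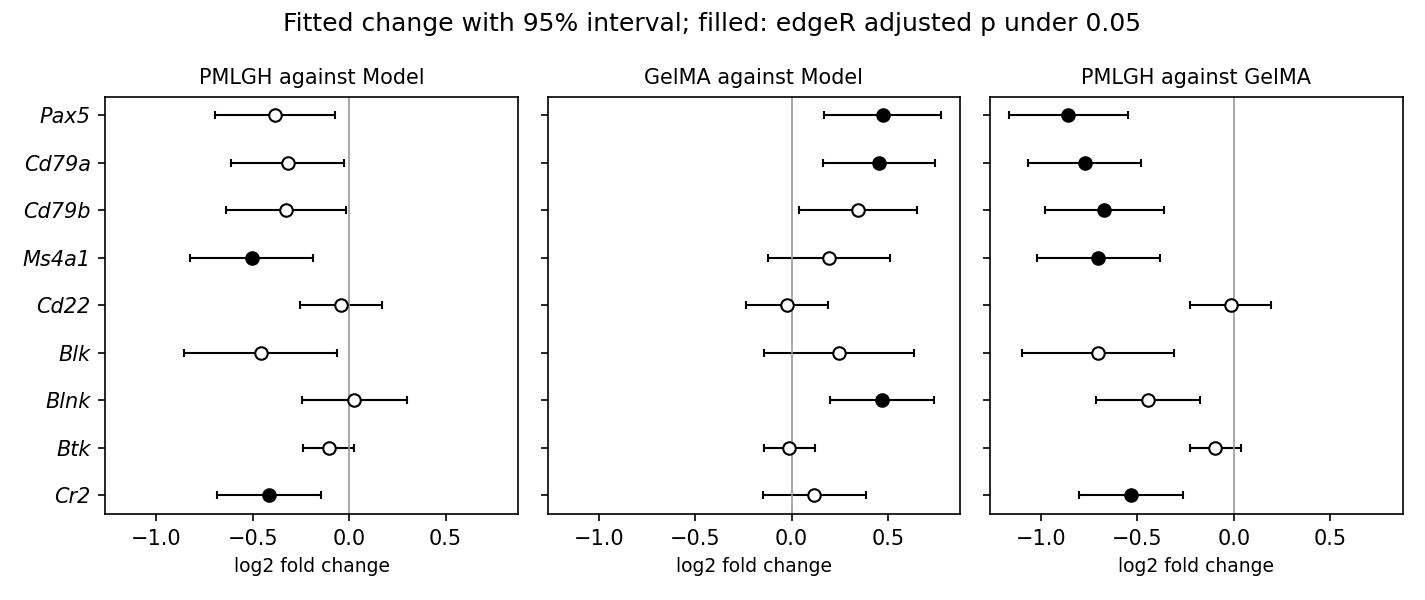
Log2 fold change of each gene (x axis) in the 3 comparisons, with its 95% interval from edgeR; filled points have an adjusted p under 0.05. In PMLGH against GelMA the filled points are Pax5, Cd79a, Ms4a1, Cd79b and Cr2, while Btk and Cd22 lie near 0 in all 3 comparisons.

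Whether the genes kept their proportions was read from the counts of each per 100 counts of Cd79a in the same library, a measure added after the levels had been seen. It does not depend on how libraries are scaled, and all ratios share the Cd79a count. Cd79b had the narrowest range, 41.2 to 45.7 per 100 Cd79a counts, with its highest library 1.11 times its lowest. Pax5 spanned 1.19-fold (20.9 to 24.9), Blk 1.30-fold, Blnk 1.37-fold and Ms4a1 1.44-fold over the 9 libraries. Cr2 spanned 1.75-fold, Btk 1.91-fold and Cd22 2.03-fold.

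Cd22 stood at 32.3, 25.9 and 30.2 per 100 Cd79a counts in Model, 21.9, 20.8 and 19.8 in GelMA and 31.9, 33.7 and 40.3 in PMLGH. All GelMA libraries were below all others. Blnk averaged 33.6 ± 1.18 in Model, 33.9 ± 1.04 in GelMA and 42.6 ± 1.85 in PMLGH (SD, n = 3), with every PMLGH library above every other library. Between PMLGH and GelMA the ratios of Cd22, Btk, Blnk, Cr2 and Cd79b did not overlap (exact two-sided permutation test, p = 0.1 each, the smallest that 3 against 3 libraries allow; 0.225 after Benjamini-Hochberg adjustment over 27 tests). Those of Pax5 (exact permutation p = 0.2), Ms4a1 (0.6) and Blk (0.6) did. Between GelMA and Model the ratios of Cd79b, Blk, Ms4a1 and Cd22 did not overlap, all lower in GelMA (exact permutation p = 0.1 each). Cd79b stood at 41.2 to 41.9 in GelMA and 44.5 to 45.2 in Model. No test of this design can reach the 0.05 threshold.

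**Figure D3:**
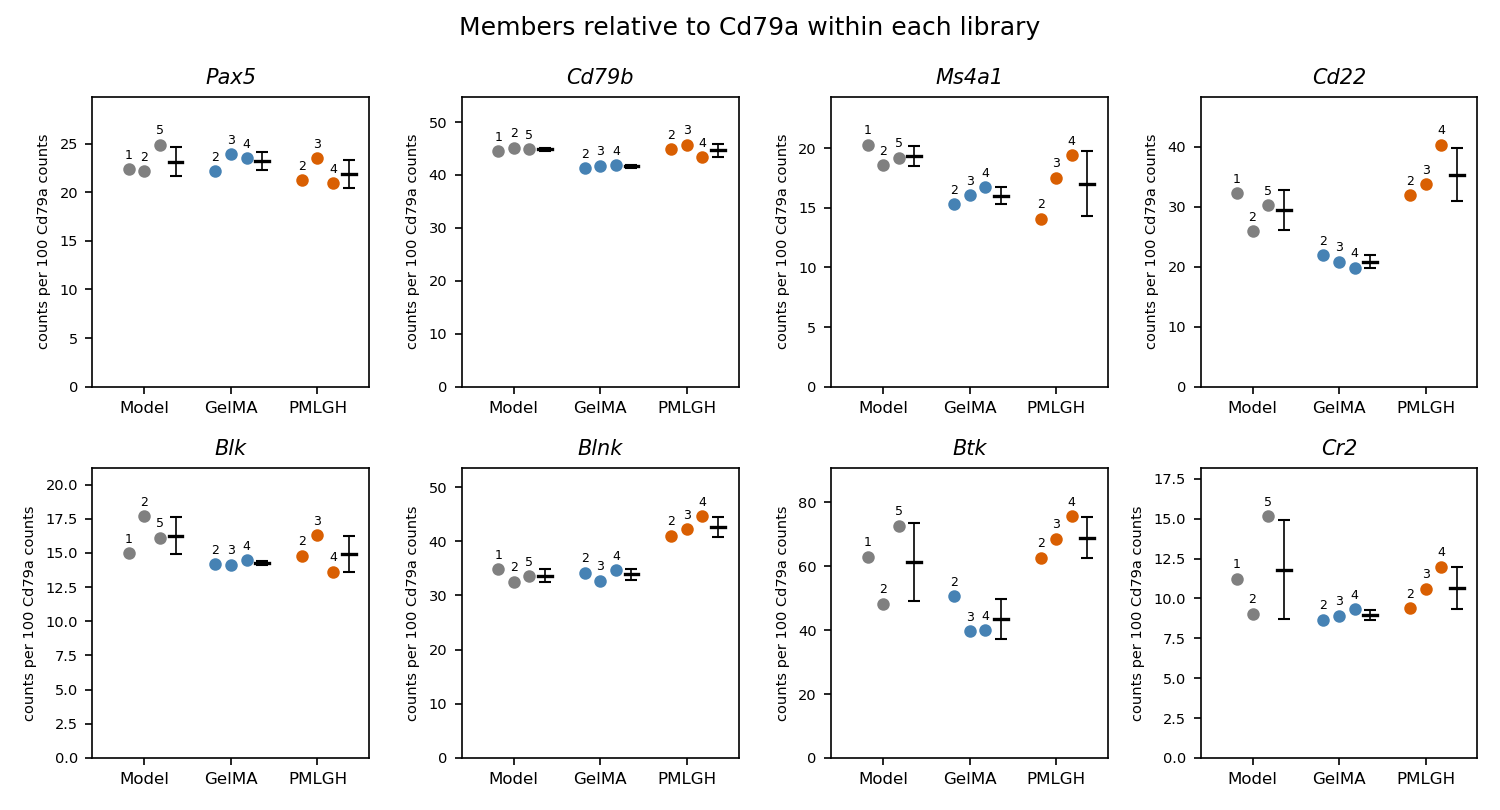
Counts of each gene per 100 counts of Cd79a in each library (linear axis from 0), by group, with mean ± SD. Cd79b stays between 41.2 and 45.7, Cd22 is lowest in the GelMA libraries, and Blnk is highest in the PMLGH libraries.

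Across the 9 libraries, the log2 CPM of Pax5, Cd79a, Cd79b, Ms4a1 and Blk moved closely together, with Pearson's r from 0.90 to 0.99 over their 10 pairs. After each group's mean was subtracted, these pairs still had r from 0.77 to 1.00. Blnk had r from 0.75 to 0.91 with the 5 genes, and 0.90 to 0.98 within groups. Cd22 had r from 0.39 to 0.59 with them over all libraries and 0.71 to 0.94 within groups. Cr2 went the other way, with 0.75 to 0.86 over all libraries and 0.37 to 0.56 within groups. Btk had 0.59 to 0.73 and 0.45 to 0.57. These values describe 9 libraries of 3 groups that share depth and scaling, and Model 2 alone sets much of the spread within Model.

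Among the 14206 genes that averaged 1 CPM or more, those whose log2 CPM followed these genes most closely over the 9 libraries were in part other B cell genes. Pax5 was followed most closely by Niban3 (r = 0.99), Cdh23 (0.98) and Spib (0.98), a transcription factor of B cells and plasmacytoid dendritic cells. Cd79a was followed by Dpp4 (0.99), Spib (0.98) and LOC102554276 (0.98). Among the nearest genes of Cd79b were Niban3 (0.99) and LOC120102305 (0.98).
The nearest gene of Blk was Bach2 (0.99), and those of Ms4a1 were Cd72 (0.95), Cecr2 (0.95) and Tpcn1 (0.95). Blnk was nearest to Rag1 (r = 0.98), a recombinase subunit of lymphocyte precursors, then Ttpal (0.97) and Rpl3l (0.97). Cd22 was nearest to Strn (0.95), Ampd2 (0.91) and Ccnk (0.91), Btk to Dhx16 (0.97), Prr12 (0.94) and Tecpr2 (0.92), and Cr2 to Ahdc1 (0.96), Rmi2 (0.96) and Etnk1 (0.94). None of these 9 nearest genes of Cd22, Btk and Cr2 was on the lists of B cell genes.

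Other B cell genes were read from lists of surface molecules, signalling proteins and transcription factors. In PMLGH against GelMA 1.64% of all genes were called lower. Of 14 tested surface genes 4 fell and none rose (median log2 fold change -0.22). Among them were Fcrla (-0.99 ± 0.19, edgeR adjusted p = 0.0074), an intracellular Fc receptor-like protein of B cells, Cd72 (-0.85 ± 0.21, 0.036) and Tnfrsf13c (-0.68 ± 0.17, 0.042), the receptor of the survival factor BAFF. Of 13 transcription factors 4 fell and none rose (median -0.23): Spib (-0.86 ± 0.16, edgeR adjusted p = 0.0063), Pou2af1 (-0.70 ± 0.16, 0.019), the octamer co-activator, Tcf3 (-0.23 ± 0.06, 0.043), which encodes E2A, and Bach2 (-0.85 ± 0.22, 0.044). None of 18 signalling genes passed (median 0.01), with Malt1 at -0.22 (edgeR adjusted p = 0.19). Most signalling genes of the list, unlike Cd79a or Pax5, are shared with T cells or myeloid cells. Whether this bears on their values was not tested.

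In GelMA against Model 12.7% of all genes were called higher and 9.88% lower. Of 14 surface genes 5 rose and none fell (median 0.22). Among them were Fcgr2b (0.48, edgeR adjusted p = 2.8e-04), the inhibitory Fc receptor, Tnfrsf13b (0.63, 0.022), Cxcr5 (0.86, 0.026) and Fcrla (0.59, 0.034). Of the transcription factors 5 of 13 rose and none fell (median 0.30), among them Mef2c (0.41, edgeR adjusted p = 0.0018), Pou2af1 (0.58, 0.015), Ebf1 (0.49, 0.017) and Ikzf3 (0.42, 0.029). Of the signalling genes 4 of 18 rose and none fell (median 0.09), which were Malt1 (0.35), Fyn (0.27), Lyn (0.26) and Pik3ap1 (0.26). Without Model 2, where 15.1% of all genes were called higher, the risers numbered 9 of 14, 8 of 13 and 11 of 18. In that fit 1 transcription factor, Tcf3, fell (-0.18, edgeR adjusted p = 0.035).

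In PMLGH against Model, where 11.9% of all genes were called lower, the B cell lists were mixed. Fcgr2b (0.66, edgeR adjusted p = 1.2e-05) and Cd81 (0.26, 0.0021) rose and Cd72 (-0.67, 0.028) fell among the 14 surface genes (median -0.08), and the call of Cd72 was lost without Model 2 (-0.26, adjusted p = 0.055). Tcf3 (-0.37, edgeR adjusted p = 3.4e-04) and Bcl11a (-0.38, 0.0021) fell and Mef2c (0.26, 0.021) rose among the 13 transcription factors (median -0.05). Lyn (0.35, edgeR adjusted p = 0.0054), Fyn (0.26, 0.0078) and Pik3ap1 (0.28, 0.027) rose among the 18 signalling genes (median 0.15). These 3 of 18 are close to the 15.7% of all genes called higher in this comparison. Without Model 2, 12 of 18 rose, where 16.7% of all genes were called higher.

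Markers of earlier and later stages of the B lineage stand beside the 9 genes. B cell precursor genes fell in PMLGH against GelMA for 5 of 8 (median -0.76), among them Rag2 (-0.78, edgeR adjusted p = 0.0086) and Vpreb3 (-1.08, 0.0089). The share of all genes called lower there was 1.64%. In GelMA against Model 3 of 8 rose, among them Vpreb1 (1.14, edgeR adjusted p = 0.013) and Rag1 (0.70, 0.024), and 6 of 8 without Model 2. The shares of all genes called higher were 12.7% and, without Model 2, 15.1%. The summed precursor level was 90.1 to 147 CPM in Model, 141 to 168 in GelMA and 107 to 125 in PMLGH, and the summed level of the 9 genes was 375 to 538, 470.0 to 579 and 350 to 385 CPM. Both sums were lower in every PMLGH library than in every GelMA library. In PMLGH against Model 2 of 8 precursor genes, Vpreb3 (-0.70, edgeR adjusted p = 0.024) and Rag2 (-0.43, 0.049), fell, and neither passed without Model 2 (0.080 and 0.076). With Model 2 kept, 11.9% of all genes were called lower in this comparison.

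Plasma cell genes, read as a sum, took another course. Their sum was 319 to 372 CPM in Model, 460 to 512 in GelMA and 480 to 529 in PMLGH, so that the GelMA and PMLGH ranges overlapped. Txndc5, Xbp1 and Sdc1 held the largest parts of it, with means of 176, 132 and 118 CPM in PMLGH, and the next, Irf4, stood at 24.8. In PMLGH against GelMA 1 of 9 tested plasma cell genes rose and none fell, and 6 of 9 rose against Model in each treated group. Of all genes, 1.8% were called higher in PMLGH against GelMA, 15.7% in PMLGH against Model and 12.7% in GelMA against Model. Without Model 2, 7 of 9 rose in GelMA and 6 of 9 in PMLGH against Model. The shares of all genes were then 15.1% and 16.7%. The riser in PMLGH against GelMA was Sdc1 (0.56, edgeR adjusted p = 2.6e-04), which encodes syndecan-1 and is made by epithelial and stromal cells as well. Of the 9, 6 had a log2 fold change below 0 in PMLGH against GelMA, and the median was -0.02. Mzb1 (-0.29), Derl3 (-0.33) and Tnfrsf17 (-0.44) lay below 0 without passing. Prdm1 (0.31) and Fkbp11 (0.17) lay above 0, also without passing. Irf4, a transcription factor that plasma cells need and that B cells and T cells also make, stood at 37.1 ± 5.57 CPM in GelMA and 24.8 ± 5.71 in PMLGH (SD, n = 3). Its log2 fold change was -0.58 (edgeR adjusted p = 0.084), and it was called lower without Model 2 (-0.58, adjusted p = 0.014).

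Markers of other cells moved with the groups, and their part in the results for the 9 genes was not tested. Of all genes, 15.7% were called higher in PMLGH against Model, 12.7% in GelMA against Model and 1.8% in PMLGH against GelMA. The shares called lower were 11.9%, 9.88% and 1.64%. Without Model 2, 16.7% and 15.1% were called higher against Model in PMLGH and GelMA. T cell genes summed to 40.9 to 63.3 CPM in Model, 73.5 to 81.1 in GelMA and 83.4 to 98.3 in PMLGH, and 7, 4 and 0 of 9 rose against Model in PMLGH, against Model in GelMA, and in PMLGH relative to GelMA. Macrophage and monocyte genes summed to 997 to 1214, 1130 to 1239 and 1408 to 1506 CPM, with 8, 3 and 5 of 9 rising in the same comparisons. Without Model 2 the risers were 8, 7 and 2 of 9 T cell genes and 8, 6 and 8 of 9 macrophage and monocyte genes. The sums of both lists were higher in every PMLGH library than in every GelMA library, the opposite order to the 9 B cell genes. Erythroid genes summed to 8260 to 10214 CPM in Model, 6823 to 7400 in GelMA and 6597 to 7294 in PMLGH, and all 7 fell against Model in each treated group and 0 of 7 passed between them. Neutrophil sums overlapped between GelMA (11754 to 12746 CPM) and PMLGH (11846 to 15295 CPM), with 0 of 7 genes passing between them, and 1 of 7 without Model 2. Bone cell genes, 11158 to 14153 CPM in Model, summed to 22317 to 24569 in GelMA and 22653 to 26442 in PMLGH, so markers of bone, the labelled tissue, were present in every library. Mast cell genes rose for 2 of 5 in GelMA and 1 of 5 in PMLGH against Model, and for none between the treated groups. Without Model 2 they rose for 3 of 5 in GelMA and 2 of 5 in PMLGH against Model. In that fit the mast cell gene Cpa3 fell in PMLGH against GelMA (-0.44, edgeR adjusted p = 0.0068).

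**Figure D4:**
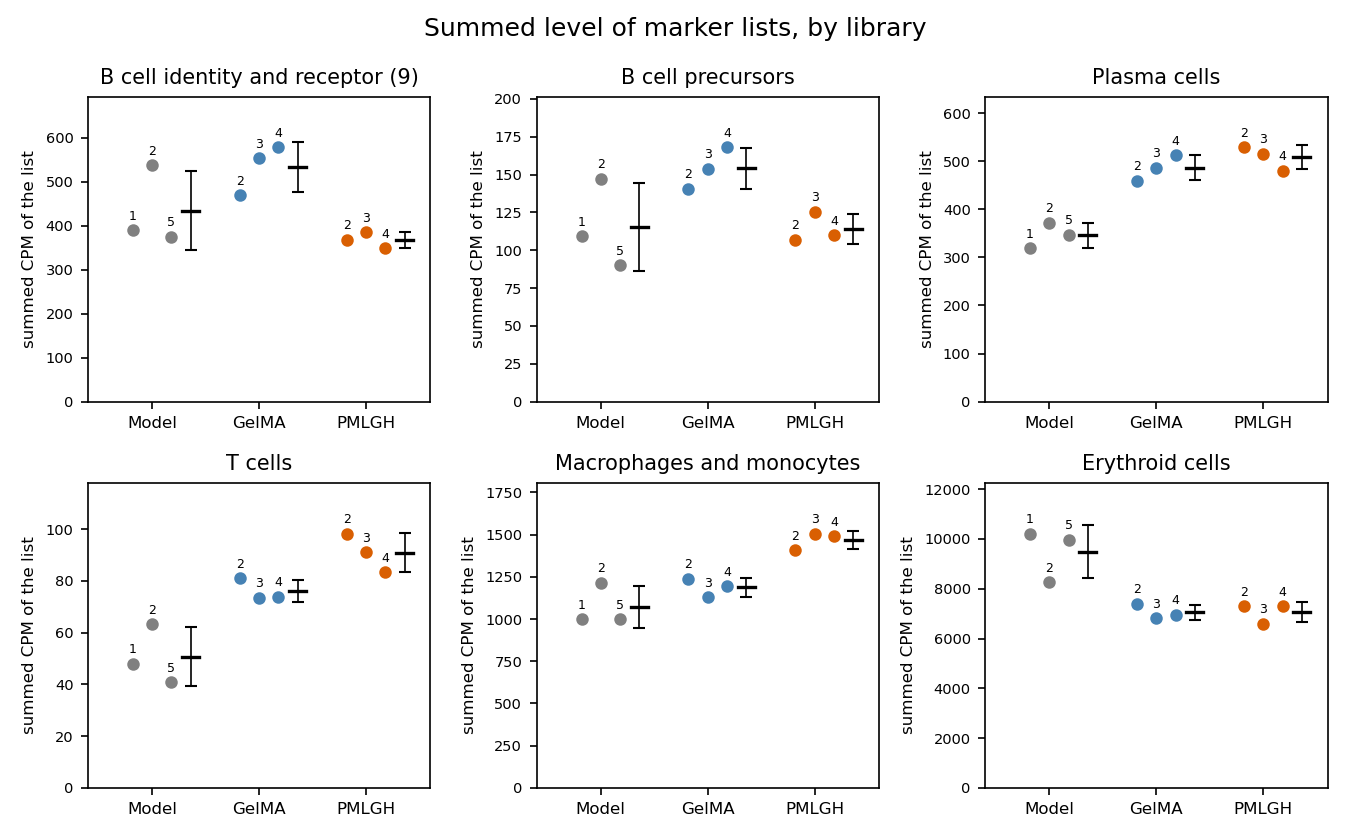
Summed CPM (linear axis from 0) of the 9 B cell genes and of marker lists of B cell precursors, plasma cells, T cells, macrophages and monocytes, and erythroid cells, per library with group mean ± SD. The 9 genes and the precursors are lower in PMLGH than in GelMA, T cell and macrophage sums are higher, and plasma cell and erythroid sums overlap.

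Cxcl13, a chemokine that draws B cells into lymphoid follicles, was the only follicular dendritic cell marker that could be tested. It stood at 5.00 ± 0.385 CPM in Model, 54.4 ± 8.84 in GelMA and 83.3 ± 16.7 in PMLGH (SD, n = 3), and rose in PMLGH against GelMA by 0.61 on the log2 scale (edgeR adjusted p = 0.013), where Pax5, Cd79a, Cd79b, Ms4a1 and Cr2 fell. The transcript of its receptor Cxcr5, also a marker of some T cells, did not pass in that comparison (-0.34, edgeR adjusted p = 0.57).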

How the data were processed

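Total RNA of 9 tibia libraries was sequenced, and the labels put 3 libraries in each of 3 groups. The authors deposited raw counts per gene symbol and FPKM, which are the counts per library total and gene length: each FPKM equalled that ratio for 22798 of 22798 genes with a count, within a relative tolerance of 1e-04, so they are no second measurement. DESeq2, without version, and R 3.2.0 are named in the submitters' processing notes with no role. The aligner, the counter, the build, the annotation and whether counting used strand: not given in the sources used here. Antisense transcripts may therefore share counts with a gene.

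From the deposited counts, genes were kept by filterByExpr, scaled by TMM and tested with edgeR 4.0.16 in R 4.3.3: a quasi-likelihood fit of 1 mean per group on all 9 libraries (6 residual degrees of freedom, biological coefficient of variation 10.1%), two-sided, with Benjamini-Hochberg adjustment over 16816 genes and a threshold of 0.05. The SE after a log2 fold change is its size over the square root of F, and its 95% interval follows from it. CPM means carry the SD over 3 libraries. Correlations used log2 CPM with a prior count of 2. Ratios to Cd79a used the counts and exact permutation tests. No libraries of the same group were copies of each other by a chi-square comparison of counts (genes averaging 50 counts or more). Libraries of different groups were not compared in this way.

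Alternatives were RLE and upper-quartile scaling, every gene with a count, a filter of 1 CPM in 3 libraries, DESeq2 1.42.0, a robust fit, only the 2 groups compared, a block by replicate number and each library left out. Scripts were tested on simulated data. The 9 genes and the lists were chosen with earlier results of these data known. The genes named are the 9, up to 4 of smallest p in each other B cell list and up to 2 in each list of other cells per comparison, and the 3 genes of highest r with each of the 9. Some genes that this rule picks are not reported here. Cxcr5 and the plasma cell genes other than Sdc1 and Irf4 in PMLGH against GelMA, and Tcf3 without Model 2, fall outside this rule. They were chosen after their values were seen. Siglecg, Ighm, Ighd, Jchain and Fdcsp were not analysed here, and Madcam1 and Ltf did not pass the filter.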

Additional observations from a re-analysis of the deposited data

How the results depend on the processing

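No log2 fold change of the 9 genes that passed its test changed sign under any alternative run, and 374 values kept their side of the threshold while 34 came to pass it and 33 no longer did. Of PMLGH against GelMA, 303 genes were called higher and 275 lower. These became 491 and 423 with DESeq2, 590 and 469 with only the 2 groups in the fit, 578 and 460 with the replicate block, and 455 higher with every gene with a count. Leaving out 1 library gave 143 to 586 higher and 144 to 464 lower. Of the 9 genes, 5 fell in that comparison, against 3 in the robust fit, 7 with the replicate block and 2 to 7 with 1 library left out. In GelMA against Model 3 of the 9 rose, against 1 in the robust fit and 0 to 6 with 1 library left out. Genes called higher made up 12.7% of all genes in the main fit and 15.1% without Model 2, where 6 of the 9 rose. Those called lower numbered 1035 to 2468 with 1 library left out. In PMLGH against Model 2 of the 9 fell, against 6 with every gene with a count and 0 to 5 with 1 library left out, which gave 1268 to 2795 genes called lower. In the main fit 11.9% of all genes were called lower in that comparison. How many of all genes were called in the robust fit, or lower with every gene with a count, is not reported here. The counts of the 9 in those fits therefore have no share to be set against.

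Pairing by replicate number was not seen in the log2 CPM, which cannot show how the samples were matched. The deviations of GelMA and PMLGH libraries of the same number from their group means had correlations of 0.01, 0.03 and -0.01. Not every library of these 2 groups correlated best with its own number. Only those 2 groups share all their numbers, so no block was fitted for the comparisons with Model. With 3 libraries a group, calls near the threshold turn on single libraries, as the report gives for each gene. The lowest count of any of the 9 genes was 377, of Cr2 in PMLGH 2.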
